A study of Mus musculus with 69 samples.

Results

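Probes for the Nduf genes, which encode subunits and assembly factors of respiratory complex I, were followed through the liver transcriptome of old mice fed rapamycin. The members were all probes whose gene symbol starts with Nduf, and 53 of the 25697 probes on the array met this rule, for 40 of 16593 genes. They were measured in 69 livers, 1 array per mouse, from C57BL6/J mice aged 25 months. The groups were 21 Rapa females and 16 control females, and 13 Rapa males and 19 control males. Rapa mice were fed 14 ppm of rapamycin, an inhibitor of the kinase mTOR, in encapsulated form for 21 months from 4 months of age. Control mice had 0 ppm over the same time. The study divided the Rapa males into Rapa-2 (6 mice) and Rapa-1 (7 mice) by the expression on these same arrays, so values of these subgroups are given below as a description without a test. Whole liver was used, in which fewer cells of a type and less RNA per cell cannot be told apart.

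Complex I is the entry point of electrons from NADH into the respiratory chain of mitochondria. It takes electrons from NADH at the tip of a peripheral arm, hands them through flavin and iron-sulfur clusters to ubiquinone, and pumps protons through a membrane arm. A small set of core subunits does this chemistry, and many accessory subunits, which make up most of the Nduf genes, surround and stabilize the core. The core of the membrane arm is encoded by mitochondrial DNA. Assembly factors help build the complex and leave it before it is finished. Hepatocytes rely on it for the NADH made by fatty acid oxidation and other fuels.

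Promoter windows were available from RefSeq (build GRCm38.p6) for 36 of the 40 symbols, each holding 250 bases before and 50 bases after the start of the gene. Letters of 4 motifs linked to genes of the respiratory chain were searched on both strands. The letters AANATGGC, a short form of the YY1 motif, occurred in 12 of the 36 windows (33.3%), against 6.7% of the windows of 17492 protein-coding genes and 6.2% of 27025 windows of all kinds. In 7 of the 36 windows (19.4%) they stood on the transcribed strand within the 50 bases after the start, which was so for 2.1% of the protein-coding genes. These letters contain ATGG, so a match there can also be the start of a reading frame. The NRF1 letters, GCGCA then any base then GCGC, were in 7 windows (19.4%, against 6.6% of protein-coding genes), the ETS letters CCGGAAG in 5 (13.9%, against 11.9%) and the Sp1 letters GGGCGG in 19 (52.8%, against 46.3%). A match is a run of letters and not a measured binding site. The windows of 4 members that stand at the ends of the comparisons below are shown, with the YY1 and NRF1 letters in capitals, and the marked matches do not overlap each other. Ndufs4 and Ndufb5 had some of the lowest probes in Rapa males, and Ndufs6 and Ndufa9 were among the highest in Rapa females. Their windows lie on the minus strand at chr13:114388045-114388344 (Ndufs4), chr13:73328433-73328732 (Ndufs6) and chr6:126849095-126849394 (Ndufa9), and on the plus strand at chr3:32736813-32737112 (Ndufb5).
Ndufs4: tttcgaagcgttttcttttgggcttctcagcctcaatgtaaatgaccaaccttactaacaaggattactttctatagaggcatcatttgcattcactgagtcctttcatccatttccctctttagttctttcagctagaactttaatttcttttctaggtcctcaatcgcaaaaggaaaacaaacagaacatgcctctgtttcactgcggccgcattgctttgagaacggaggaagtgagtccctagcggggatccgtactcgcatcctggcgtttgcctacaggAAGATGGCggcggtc
Ndufb5: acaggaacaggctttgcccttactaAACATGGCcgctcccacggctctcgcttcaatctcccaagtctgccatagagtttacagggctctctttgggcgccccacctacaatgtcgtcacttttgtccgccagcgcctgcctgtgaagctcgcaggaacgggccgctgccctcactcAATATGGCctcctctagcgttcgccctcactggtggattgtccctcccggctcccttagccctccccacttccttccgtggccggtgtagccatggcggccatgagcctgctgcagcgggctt
Ndufs6: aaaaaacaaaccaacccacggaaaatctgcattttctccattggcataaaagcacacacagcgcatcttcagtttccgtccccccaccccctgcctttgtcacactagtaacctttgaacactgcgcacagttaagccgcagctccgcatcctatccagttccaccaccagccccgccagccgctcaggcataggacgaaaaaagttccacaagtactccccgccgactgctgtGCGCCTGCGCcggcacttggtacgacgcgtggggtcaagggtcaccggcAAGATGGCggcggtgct
Ndufa9: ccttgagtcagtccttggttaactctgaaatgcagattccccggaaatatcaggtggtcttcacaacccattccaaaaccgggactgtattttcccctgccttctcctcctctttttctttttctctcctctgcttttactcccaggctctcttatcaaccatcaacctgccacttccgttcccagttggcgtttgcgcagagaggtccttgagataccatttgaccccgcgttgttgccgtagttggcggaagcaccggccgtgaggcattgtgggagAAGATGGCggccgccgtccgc
In Ndufs4, Ndufs6 and Ndufa9 the YY1 letters began 36, 34 and 30 bases after the start, each as AAGATGGC followed by GGC. In Ndufb5 they lay before the start, and Ndufs6 also held the NRF1 letters. These 4 windows were selected and all held the YY1 letters, and a link of the letters to the differences was not tested.

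Only probes with a detection p below 0.05 on 13 or more arrays were tested. This left 48 member probes, for 39 symbols, of 12442 probes in all, and 40 of the 48 were detected on all 69 arrays. The only probe of Ndufs1, a core subunit, was detected on 0 arrays. One of the probes each of Ndufaf5 (3 arrays) and Ndufb11 (1 array) and 2 probes of Ndufaf7 (0 arrays) were also left out, while another probe of each of these genes was tested. Ndufab1, Ndufb4 and the dimmer Ndufa5 probe met the rule through male arrays, and each was detected on 1 of 21 Rapa female arrays. Control females had 2, 11 and 9 of 16 arrays, Rapa-2 males 1, 0 and 3 of 6, and control males 18, 19 and 19 of 19. In females these 3 lay near the background, so their calls against males rest on low signal. The tested set held 5 core subunits, all of the peripheral arm, but none of the 7 subunits encoded by mitochondrial DNA had a probe. Ndufa4 is today assigned to complex IV, and Ndufs5-ps is a pseudogene. Both fall under the naming rule and are counted as members.

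Array-wide measures differed between the groups and stand beside the results that follow. The median raw signal was 87.9 to 116.5 in Rapa females and 92.4 to 119.0 in control females, and 84.0 to 96.8 in Rapa-2 males, 116.8 to 130.8 in Rapa-1 males and 113.8 to 146.0 in control males. Probes detected made up 37.12% to 42.46% in Rapa females and 40.38% to 47.37% in control females. The Y-linked Eif2s3y had a raw signal of 93.8 to 133.8 on the 6 Rapa-2 arrays, against 508.1 to 783.4 on Rapa-1 arrays and 417.3 to 861.6 on control male arrays, and 67.1 to 100.2 in Rapa females and 72.6 to 94.3 in control females. Xist, which coats the inactive X chromosome, was detected with 1 of its probes on all 21 Rapa female and all 16 control female arrays, and on 0 of the 6 Rapa-2, 7 Rapa-1 and 19 control male arrays. Y-linked Kdm5d was at 68.2 to 85.2 on Rapa-2 arrays, against 114.9 to 174.9 on control male arrays. Y-linked Uty was at 94.0 to 127.8 against 141.3 to 222.2, though its probe was also detected on all 16 control female arrays. The Rapa-2 arrays were thus low in raw signal and in these Y-linked transcripts without gaining Xist. All 4 neutrophil markers (S100a8, S100a9, Ngp and Ltf) passed the test as lower in Rapa females than in control females, with a median log2 difference of -1.98, and all 4 as higher in control females than in control males, with 1.598. Their summed signal was 443.3 to 22750 in Rapa females and 639.9 to 50410 in control females. Of 7 tested hepatocyte markers, 0 passed as higher and 3 as lower in Rapa females (Hnf4a at -0.40, Serpina1a at -0.56 and Ttr at -0.22), while the summed signal of the list overlapped, at 117600 to 153800 in Rapa females and 126100 to 153100 in control females. Of 5 tested stellate cell markers 0 passed as higher and 1 as lower in Rapa females, and of 6 endothelial markers 0 and 2. In Rapa males 2 stellate and 1 endothelial markers passed as lower. Of all tested probes 18.5% passed as lower in Rapa females and 7.52% in Rapa males. The stellate marker Dcn was at -0.79 and the sinusoidal endothelial marker Lyve1 at -0.61 in Rapa females minus control females. In Rapa males minus control males they were at -0.26 and -0.93. Clec4g, the other endothelial marker that passed as lower in Rapa females, was at -0.22. Other markers of the 2 lists did not pass in Rapa females, such as Des at 0.08 and Kdr at 0.15. Kdr and Lyve1 were detected on only 21 and 37 of the 69 arrays, and Clec4g and Des on all 69. The part of these measures in the member results was not tested unless a value is given. In the labels every Rapa female had a lower animal number than every control female. Every Rapa male likewise had a lower number than every control male. Diet thus coincided with separate stretches of animal numbers in both sexes, and the part of these stretches cannot be told apart from that of diet.

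The first comparison asked how long-term rapamycin feeding altered complex I transcripts in females. On quantile-normalized values, though not with arrays scaled to their median over all probes, members were more often higher than lower in Rapa females. The peripheral arm was in the lead, while 2 probes for Ndufs4 stood far below all others. A probe passed with an adjusted p under 0.05 (limma, Benjamini-Hochberg over all tested probes) and a change of over 15%, a log2 difference over 0.202 in size. In Rapa females against control females, 19 of 48 member probes passed as higher (39.6%) and 9 as lower (18.8%), against 20.0% higher and 18.5% lower of all tested probes. The median log2 difference was 0.08 over the members and 0.03 over all tested probes. Arrays of Rapa females lay wholly above those of control females on 0 members (against 0.209% of all tested probes) and wholly below on 0 (against 0.281%). The excess of higher members depended on the scaling of the arrays. With each array scaled to its median over all probes, the median difference of all tested probes moved to -0.20, and 0 members passed as higher and 23 as lower (47.9%), against 0.611% and 45.4% of all tested probes. Relative to that shift, Ndufs6, Ndufa9, Ndufa3 and Ndufb7 still lay 0.33, 0.27, 0.26 and 0.25 above the median probe. With the detected share of each array in the model, again 0 members passed as higher and 6 as lower. Of all 12442 tested probes 1638 then passed, 36% of them as higher. With arrays scaled to their median over the tested probes only, 6499 passed, 68.1% of them as higher. The median difference was then 0.077 over members and 0.114 over all tested probes. Below, median scaling means scaling over all probes unless the tested probes are named.

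**Figure D1:**
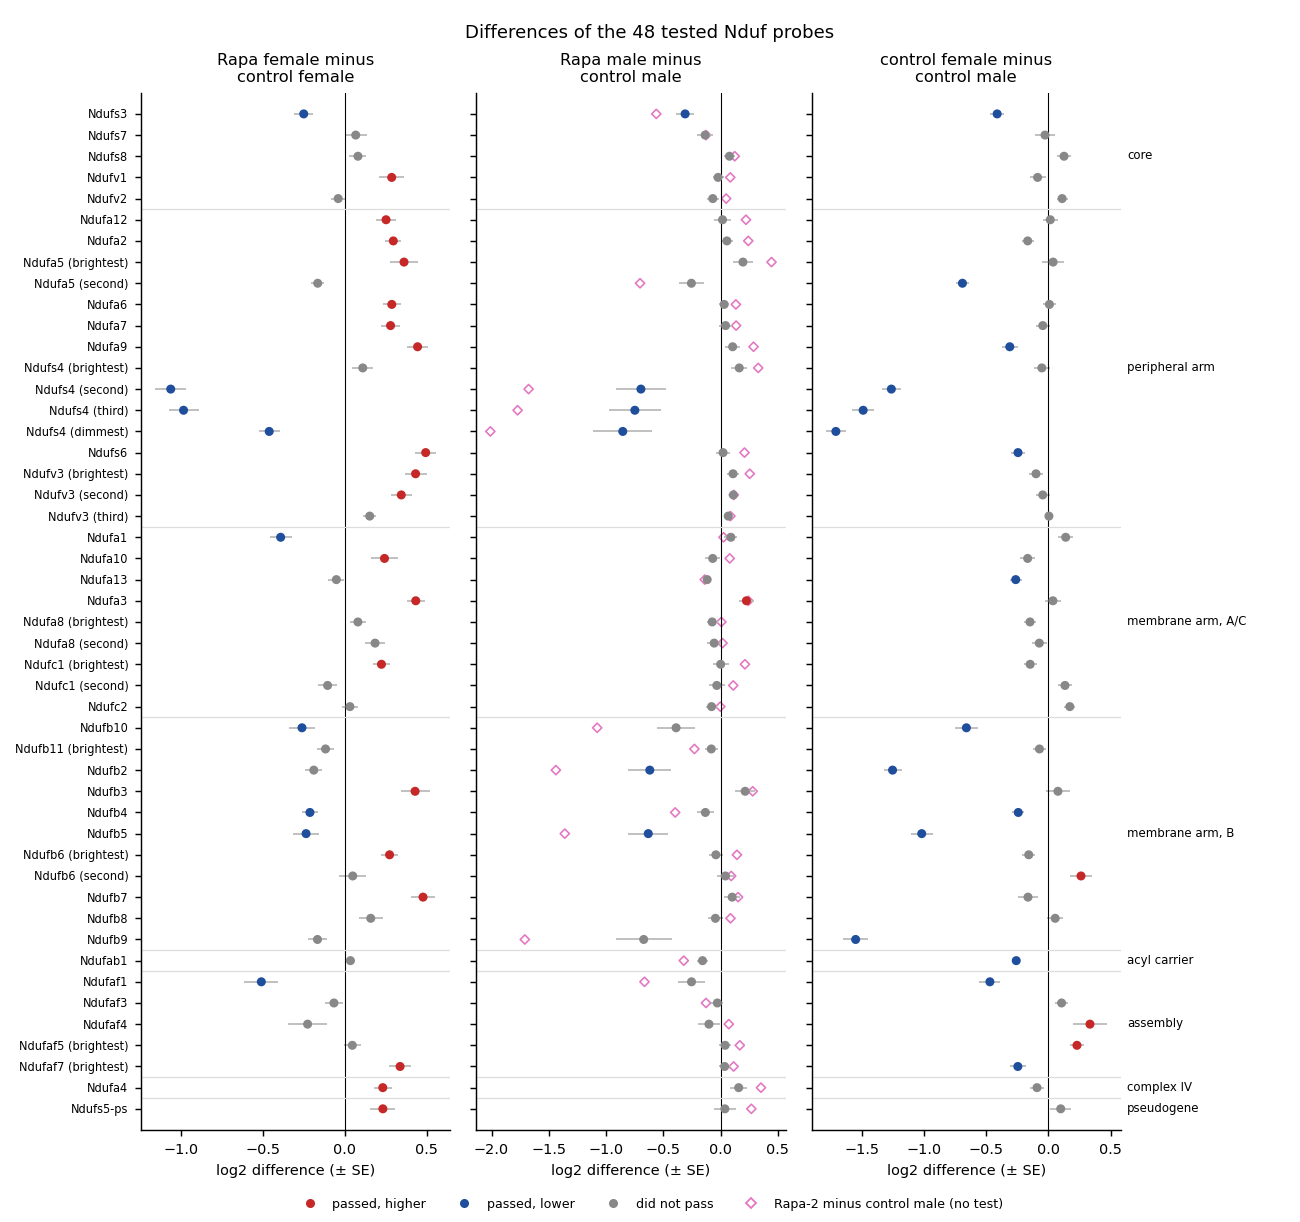
Log2 difference with its standard error for the 48 tested Nduf probes, grouped by role, in Rapa females minus control females (left), Rapa males minus control males (middle, with open diamonds for Rapa-2 minus control males) and control females minus control males (right). Red and blue points passed as higher and lower on quantile-normalized values. In the left panel 19 were red, where scaling to the array median over all probes left 0. On all 3 panels 3 Ndufs4 probes are blue.

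Among accessory subunits of the peripheral arm, 9 of 15 probes passed as higher and 3 as lower, and the median difference was 0.28. Ndufs6, a zinc-binding subunit, had a log2 signal of 13.10 to 13.67 in Rapa females (median 13.36) and 12.28 to 13.27 in control females (median 12.90). The ranges overlapped, but all 21 Rapa arrays lay above the control mean (log2 difference 0.49 ± 0.06 SE, adjusted p = 5.18e-08; 0.13 with median scaling). Ndufa9, which binds a nucleotide close to the ubiquinone site, reached 11.85 to 12.53 in Rapa females (median 12.27) and 11.38 to 12.08 in control females (median 11.85). Here too all 21 Rapa arrays were above the control mean (0.44 ± 0.06, adjusted p = 4.31e-07; 0.07 with median scaling). Ndufa2, Ndufa5, Ndufa6, Ndufa7 and Ndufa12, further accessory subunits of this arm, each had a probe that passed as higher, by 0.25 to 0.36. All 5 were below 0 with median scaling, between -0.18 and -0.02, but 0.02 to 0.18 above the median probe.

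Of the membrane arm, Ndufb7 and Ndufa3 had the largest positive differences. Ndufb7, a subunit on the intermembrane face of the arm, had a log2 signal of 8.66 to 9.39 in Rapa females (median 9.02) and 7.90 to 9.02 in control females (median 8.65). The groups overlapped, yet all 21 Rapa arrays exceeded the control mean (0.48 ± 0.08, adjusted p = 1.96e-06; 0.05 with median scaling). Ndufa3, a small accessory subunit of the membrane arm, lay between 11.99 and 12.48 in Rapa females (median 12.16) and between 11.28 and 12.12 in control females (median 11.74). Its difference was 0.43 ± 0.06 (adjusted p = 4.67e-08; 0.06 with median scaling), with all 21 Rapa arrays above the control mean. Ndufb3 (0.43), Ndufb6 (0.27, brighter probe), Ndufa10 (0.24) and Ndufc1 (0.22, brighter probe) passed as higher as well. With median scaling all 4 were below 0, but 0.05 to 0.19 above the median probe. In the other direction, Ndufa1, a small membrane protein needed for assembly of the arm, had 11.52 to 12.24 in Rapa females (median 11.95) and 12.02 to 12.69 in control females (median 12.30). All 21 Rapa arrays fell below the control mean (-0.39 ± 0.07, adjusted p = 5.82e-06; -0.76 with median scaling). Ndufb10, Ndufb5 and Ndufb4 were lower by 0.26, 0.24 and 0.21, close to the size needed to pass. Ndufb4 was detected on 1 of 21 Rapa female and 11 of 16 control female arrays.

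**Figure D2:**
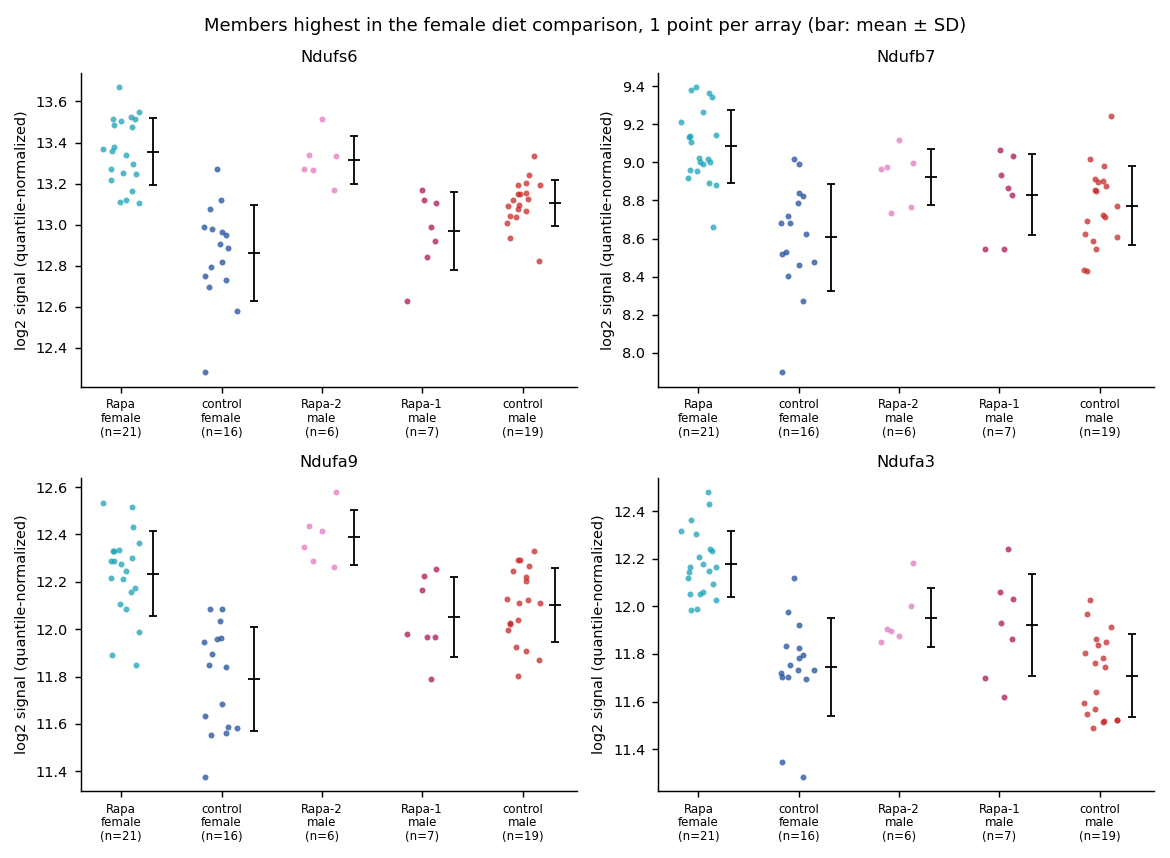
Log2 signal of Ndufs6, Ndufb7, Ndufa9 and Ndufa3 on each array, by group from Rapa females at the left to control males at the right, with mean and SD as bars. In all 4 panels every Rapa female point lies above the control female mean on these quantile-normalized values. With median scaling over all probes the 4 differences shrink to between 0.05 and 0.13.

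The core subunits did not move as a block. Ndufs3, a core protein of the ubiquinone module and among the first to be assembled, had 10.46 to 11.24 in Rapa females (median 10.84) and 10.72 to 11.38 in control females (median 11.06). It was lower in 20 of 21 Rapa arrays than the control mean (-0.25 ± 0.06, adjusted p = 0.00042; -0.66 with median scaling). Ndufv1, which carries the flavin and the NADH-binding site, reached 12.51 to 13.47 in Rapa females (median 12.89) and 12.09 to 13.01 in control females (median 12.64). Its difference was 0.29 ± 0.08 (adjusted p = 0.00177), but -0.08 with median scaling, which was 0.12 above the median probe. It was 0.15 (adjusted p = 0.118) against only the 9 controls with the higher animal numbers. Ndufs7 and Ndufs8, which hold the iron-sulfur clusters next to ubiquinone, and Ndufv2, an iron-sulfur protein beside Ndufv1, did not pass. Ndufs7 spanned 11.27 to 11.93 in Rapa females and 11.14 to 11.87 in control females (0.07 ± 0.07). Ndufs8 spanned 11.30 to 11.75 in Rapa females and 11.11 to 11.69 in control females (0.08 ± 0.05). Ndufv2 spanned 11.73 to 12.28 in Rapa females and 11.85 to 12.28 in control females (-0.04 ± 0.05), so the groups overlapped on all 3.

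Among 5 assembly factors with a tested probe, 1 passed as higher and 1 as lower. Ndufaf1, part of the assembly complex for the membrane arm, had 8.58 to 10.09 in Rapa females (median 9.12) and 9.07 to 10.05 in control females (median 9.70). In Rapa females 20 of 21 arrays were below the control mean (-0.51 ± 0.10, adjusted p = 8.28e-05; -0.95 with median scaling). Ndufaf7, which methylates a core subunit early in assembly, had 7.79 to 8.56 in Rapa females and 7.44 to 8.20 in control females (0.34 ± 0.07, adjusted p = 5.86e-05; -0.003 with median scaling). Ndufaf3, Ndufaf4 and Ndufaf5 did not pass, with differences of -0.07, -0.23 and 0.05. Ndufab1, the mitochondrial acyl carrier protein, differed by 0.03 ± 0.03 and did not pass. It was detected on 1 of 21 Rapa female and 2 of 16 control female arrays. Ndufa4 (0.23) and Ndufs5-ps (0.23) passed as higher, and both were below 0 with median scaling, at 0.09 and -0.01 relative to the median probe.

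Ndufs4 had the largest differences of any member gene and also the sharpest disagreement between probes. Ndufs4 encodes an accessory subunit that joins the peripheral arm late in assembly, and its loss in mice and people causes a severe mitochondrial encephalopathy. Its brightest probe had 11.43 to 12.04 in Rapa females (median 11.67) and 11.10 to 11.99 in control females (median 11.65), and did not pass (0.11 ± 0.06, adjusted p = 0.14). The second probe had 7.64 to 9.06 in Rapa females (median 8.11) and 8.55 to 9.60 in control females (median 9.18). On this probe 21 of 21 Rapa arrays were below the control mean (-1.06 ± 0.10, adjusted p = 3.17e-11). The third probe differed by -0.98 ± 0.09 (adjusted p = 5.49e-11) and the dimmest by -0.46 ± 0.06 (adjusted p = 1.26e-07), again with 21 of 21 Rapa arrays below the control mean. These 3 probes thus fell, while the brightest did not pass. With median scaling the 4 differences were -0.26, -1.45, -1.31 and -0.65. Which of the probes reports the coding transcript was not analysed here.

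**Figure D3:**
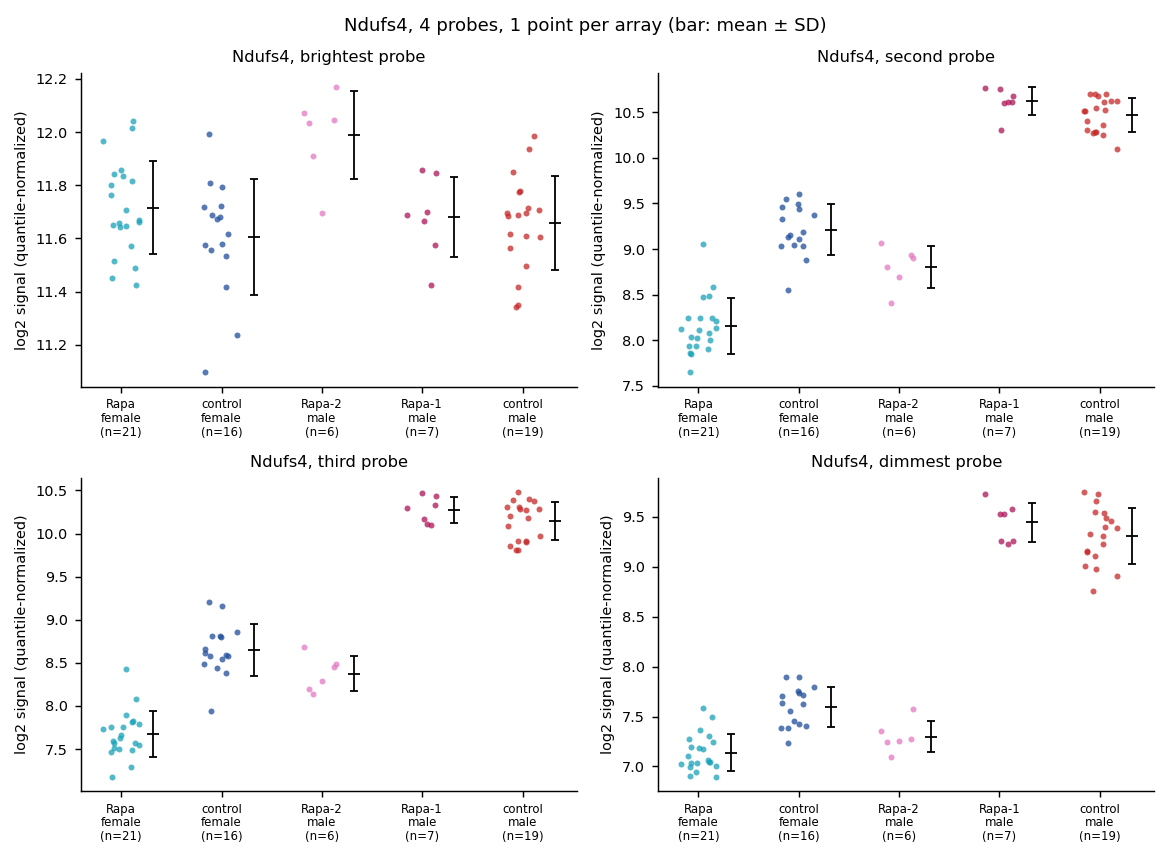
Log2 signal of the 4 Ndufs4 probes on each array by group, with mean and SD as bars; the vertical scale differs between panels. On the second, the third and the dimmest probes the Rapa-2 males sit with the females and the Rapa-1 males with the control males, while on the brightest probe all 5 groups overlap.

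Other genes with more than 1 tested probe showed this kind of split too. There were 6 such genes, and in 5 of them the probes differed in call or in sign in this comparison. The brighter Ndufa5 probe passed as higher (0.36 ± 0.09) while the dimmer was at -0.17 ± 0.04, its Rapa female arrays spanning 6.58 to 7.02 and its control female arrays 6.73 to 7.18. For Ndufc1 the brighter probe passed as higher (0.22 ± 0.05) and the dimmer was at -0.10 ± 0.06. For Ndufb6 the values were 0.27 ± 0.05 and 0.05 ± 0.08. The 3 probes of Ndufv3, a small subunit at the NADH-oxidizing tip, differed by 0.43 ± 0.07, 0.34 ± 0.06 and 0.15 ± 0.04, in order of brightness, and the dimmest did not reach the size needed to pass. Brightness is a property of a probe and not a measure of abundance between genes.

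The next comparison asked the same of males. Few members passed, and all of those but Ndufa3 were lower, led again by Ndufs4. In Rapa males against control males 1 of 48 member probes passed as higher (2.08%) and 6 as lower (12.5%), against 3.06% higher and 7.52% lower of all tested probes. The median log2 difference was -0.03 over members and 0.03 over all tested probes. The second, the third and the dimmest Ndufs4 probes were at -0.70 ± 0.22, -0.75 ± 0.23 and -0.85 ± 0.26 (adjusted p = 0.0264, 0.0232 and 0.0227). Only 7, 8 and 9 of the 13 Rapa male arrays lay below the control mean on these probes. Ndufb5 (-0.63 ± 0.17, adjusted p = 0.0143) and Ndufb2 (-0.62 ± 0.19, adjusted p = 0.0232), accessory subunits of the membrane arm, and the core subunit Ndufs3 (-0.31 ± 0.08, adjusted p = 0.00986) also passed as lower. Ndufa3 passed as higher, with 11.62 to 12.24 in Rapa males (median 11.90) and 11.49 to 12.03 in control males (median 11.75), and 11 of 13 Rapa arrays above the control mean (0.23 ± 0.06, adjusted p = 0.0141; 0.17 with median scaling). Of the other core subunits, Ndufs7 was at -0.13 ± 0.07, Ndufs8 at 0.08 ± 0.05, Ndufv1 at -0.02 ± 0.05 and Ndufv2 at -0.07 ± 0.05, and none of these 4 passed. Without the 6 Rapa-2 arrays 0 members passed in either direction, where only 47 of all 12442 tested probes did. The same 3 Ndufs4 probes were then at 0.145, 0.129 and 0.137. With the raw median of each array as a covariate 0 members passed as well, where 20 of all 12442 tested probes did, and the 3 probes were at 0.141, 0.117 and 0.124.

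Within Rapa males the values fell into the subgroups named in the titles, which the study drew from these arrays. In the labels, every Rapa-1 male had a lower animal number than every Rapa-2 male. The subgroups thus coincided with separate stretches of animal numbers, as the diet groups did, and the part of these stretches in the differences was not tested. The Rapa-2 arrays lay wholly below all 19 control male arrays on 11 of 48 member probes (22.9%), against 9.42% of all tested probes, and wholly above on 0, against 2.18%. Rapa-1 and control male arrays were separated on 0 members in either direction, and on 0.00% of all tested probes. Rapa-2 lay wholly below Rapa-1 on 12 members (25%, against 11.4%) and wholly above on 3 (6.25%, against 6.04%), namely Ndufa2, Ndufa9 and Ndufaf5. The second Ndufs4 probe had a log2 signal of 8.41 to 9.07 in Rapa-2 males (median 8.85), 10.31 to 10.77 in Rapa-1 males (median 10.61) and 10.09 to 10.71 in control males (median 10.52). Ndufb9, an accessory subunit that binds the acyl carrier protein, had 7.06 to 7.49 in Rapa-2 males (median 7.25), 8.94 to 9.39 in Rapa-1 males (median 9.22) and 8.21 to 9.57 in control males (median 8.92). On both probes the highest Rapa-2 array lay below the lowest control male array, while the Rapa-1 arrays overlapped the control males. The other separated members were Ndufb2 (-1.44 in Rapa-2 minus control males), Ndufb5 (-1.36), Ndufb10 (-1.08), the dimmer Ndufa5 probe (-0.70), Ndufaf1 (-0.66), Ndufs3 (-0.56), Ndufb4 (-0.40) and 2 more Ndufs4 probes, the third at -1.77 and the dimmest at -2.01. Ndufb2 was detected on 4 of the 6 Rapa-2 arrays. The brightest Ndufs4 probe was higher in Rapa-2 males, at 11.69 to 12.17, than the 11.43 to 11.86 in Rapa-1 males and 11.34 to 11.99 in control males, with overlapping arrays. Since the raw array median of Rapa-2 males lay wholly below that of control males, a difference in the arrays and a difference in the livers cannot be told apart here.

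The control groups were then compared to ask how complex I transcripts differed by sex without drug. Members were more often lower than higher in control females, led by probes of Ndufs4, Ndufb9, Ndufb2 and Ndufb5. In control females against control males 16 of 48 member probes passed as lower (33.3%) and 3 as higher (6.25%), against 16.1% lower and 19.5% higher of all tested probes. The median difference was -0.09 over members and 0.05 over all tested probes. With median scaling 16 members passed as lower and 2 as higher, against 16.8% and 17.3% of all tested probes. With the raw median signal of each array in the model 14 and 0 members did. Of all 12442 tested probes 3946 then passed, 50.1% of them as higher. Arrays of control females lay wholly below those of control males on 7 members (14.6%, against 5.06%) and wholly above on 0 (against 0.458%).

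Of the membrane arm B subunits, 5 of 11 probes passed as lower and 1 as higher. Ndufb9 had a log2 signal of 7.02 to 7.79 in control females (median 7.48) and 8.21 to 9.57 in control males (median 8.92). The ranges did not overlap (-1.55 ± 0.10, adjusted p = 1.52e-15). Ndufb2 had 6.83 to 7.47 in control females (median 7.15) and 8.08 to 8.80 in control males (median 8.45), again without overlap (-1.25 ± 0.07, adjusted p = 4.2e-17). Ndufb5 was at 7.46 to 8.61 in control females (median 8.01) and 8.67 to 9.53 in control males (median 8.97), separated by a narrow gap (-1.02 ± 0.09, adjusted p = 3.35e-12). Ndufb10, a cysteine-rich subunit facing the intermembrane space, overlapped between the groups, at 7.36 to 8.32 in control females and 8.11 to 9.00 in control males (-0.66 ± 0.10, adjusted p = 3.5e-07). In Rapa females Ndufb9, Ndufb2 and Ndufb5 had medians of 7.26, 6.95 and 7.78, and in Rapa-2 males 7.25, 6.95 and 7.74. Ndufb2 was detected on 12 of 21 Rapa female, 15 of 16 control female, 4 of 6 Rapa-2 and 19 of 19 control male arrays. Its 2 medians of 6.95 thus lie near the background.

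**Figure D4:**
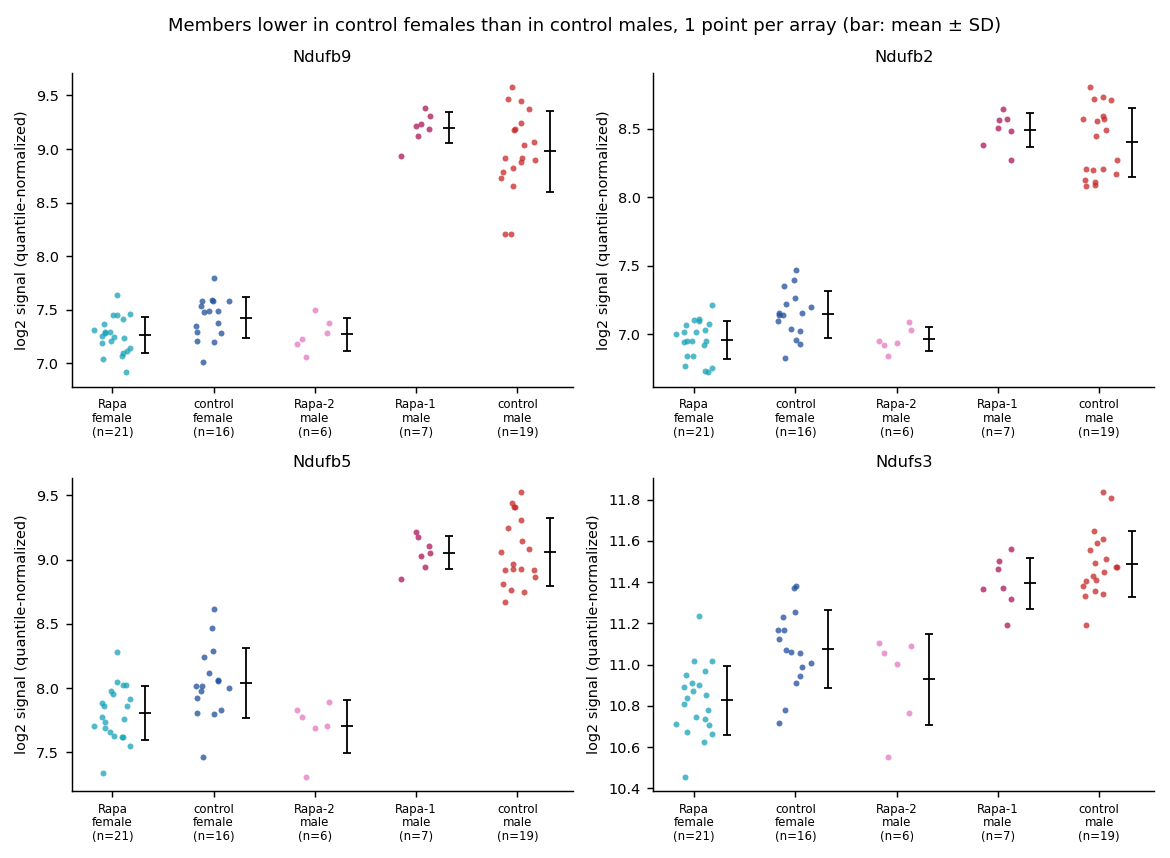
Log2 signal of Ndufb9, Ndufb2, Ndufb5 and Ndufs3 on each array by group, with mean and SD as bars; the vertical scale differs between panels. For Ndufb9, Ndufb2 and Ndufb5, control females and Rapa-2 males lie wholly below control males, whereas control female and control male arrays of Ndufs3 overlap.

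The 3 dimmer Ndufs4 probes were, with Ndufb9, the members with the largest sex differences. The dimmest had 7.23 to 7.90 in control females (median 7.63) and 8.75 to 9.75 in control males (median 9.32), a difference of -1.71 ± 0.08 (adjusted p = 1.65e-19). The third differed by -1.49 ± 0.09 (adjusted p = 4.81e-17) and the second by -1.26 ± 0.08 (adjusted p = 2e-16). On all 3 the control groups did not overlap. The brightest probe had 11.10 to 11.99 in control females (median 11.65) and 11.34 to 11.99 in control males (median 11.69) and did not pass (-0.05 ± 0.07, adjusted p = 0.504). For Ndufa5 the dimmer probe was separated in the same way, at 6.73 to 7.18 in control females and 7.27 to 7.94 in control males (-0.69 ± 0.05, adjusted p = 1.58e-13), while the brighter was at 0.04 ± 0.09. The dimmer Ndufa5 probe was detected on 9 of 16 control female and 19 of 19 control male arrays. These 3 Ndufs4 probes, the dimmer Ndufa5 probe, Ndufb9, Ndufb2 and Ndufb5 were the 7 separated members.

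Ndufs3 was the only core subunit of the 5 to pass in this comparison, with 10.72 to 11.38 in control females (median 11.06) and 11.19 to 11.84 in control males (median 11.47). All 16 control female arrays were below the male mean (-0.41 ± 0.06, adjusted p = 2.37e-07). Ndufs7, Ndufs8, Ndufv1 and Ndufv2 were at -0.03, 0.13, -0.09 and 0.11. Ndufs6 and Ndufa9, which stood highest in Rapa females, passed as lower here, by 0.24 and 0.31. Ndufaf1 (-0.47 ± 0.08), Ndufaf7 (-0.25 ± 0.06), Ndufa13 (-0.26 ± 0.05), Ndufab1 (-0.26 ± 0.03) and Ndufb4 (-0.24 ± 0.05) completed the lower members. Of these, Ndufab1 and Ndufb4 were detected on 2 and 11 of 16 control female arrays, against 18 and 19 of 19 control male arrays. The 3 higher ones were the assembly factors Ndufaf4 (0.33 ± 0.14, adjusted p = 0.0357) and Ndufaf5 (0.23 ± 0.05, adjusted p = 0.000571) and the dimmer Ndufb6 probe (0.26 ± 0.09, adjusted p = 0.0109). Ndufaf4, an early assembly factor, had 9.06 to 11.03 in control females (median 9.63) and 8.89 to 10.29 in control males (median 9.32), with wide overlap, and its difference was -0.11 with the raw array signal in the model.

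Probe brightness divided the members. At a mean log2 signal of 9, a line chosen after the values were seen, 16 members were dimmer and 32 brighter. In control females against control males 10 of the 16 dimmer members (62.5%) and 6 of the 32 brighter ones (18.8%) passed as lower, while 15.6% of all dimmer and 17.5% of all brighter tested probes did. In Rapa females against control females 2 of the dimmer members passed as higher and 5 as lower, against 17 and 4 of the brighter ones. These are 12.5% and 31.2% of the dimmer and 53.1% and 12.5% of the brighter members, where 16.6% and 17.5% of all dimmer and 28.9% and 21.2% of all brighter tested probes passed. The median difference there was -0.14 for dimmer and 0.23 for brighter members, against 0.02 and 0.06 for all dimmer and all brighter probes. With limma's neqc, which subtracts an estimated background, the differences of the dimmest Ndufs4 probe and of Ndufb9 in control females minus control males were -2.31 and -2.23.

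**Figure D5:**
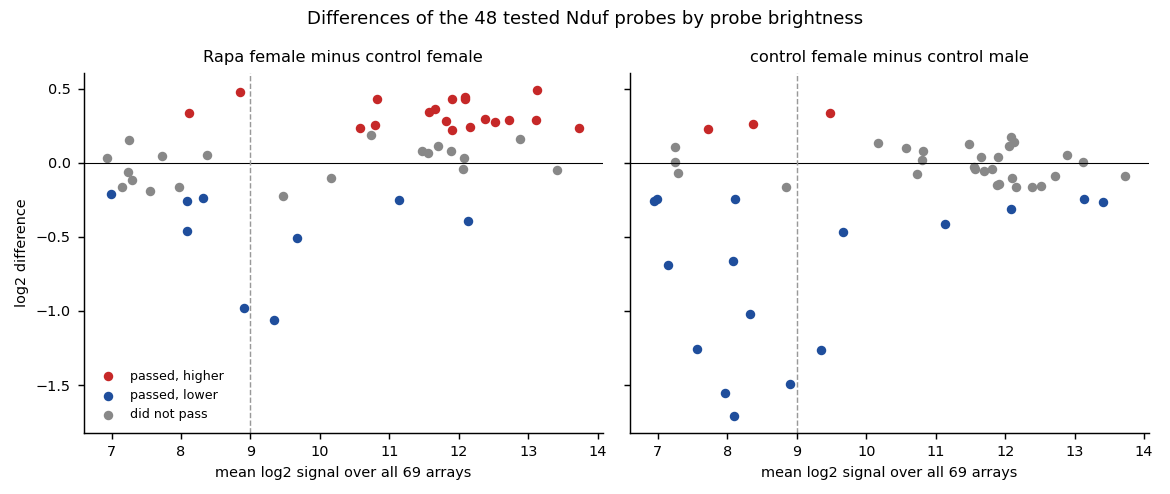
Log2 difference of the 48 tested Nduf probes against their mean log2 signal over all 69 arrays, for Rapa females minus control females (left) and control females minus control males (right); the dashed line marks a mean of 9. Left, 17 of the 19 probes that passed as higher lie right of the line on quantile-normalized values (0 passed with median scaling over all probes). Right, 10 of the 16 that passed as lower lie left of it.

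Whether the response to rapamycin differed between the sexes was tested by the interaction of diet and sex on all 69 arrays. It passed at an adjusted p under 0.05 as higher in females for 14 of 48 member probes (29.2%) and as lower for 1 (2.08%), against 11.2% and 9.27% of all tested probes. The highest of these was Ndufs6, with a difference of 0.49 in females and 0.02 in males (interaction 0.47 ± 0.09, adjusted p = 0.000263). Ndufb7 (0.38 ± 0.11), Ndufa9 (0.34 ± 0.09), the brightest Ndufv3 probe (0.32 ± 0.09), Ndufb6 (0.31 ± 0.08, brighter probe), Ndufa10 (0.31 ± 0.11) and Ndufv1 (0.31 ± 0.10) followed. The lower one was Ndufa1, larger in size than any of them, which was at -0.39 in females and 0.09 in males (interaction -0.48 ± 0.09, adjusted p = 0.000194). None of the Ndufs4 probes passed this test with both Rapa male subgroups entered. Without the Rapa-2 arrays the values of the second, the third and the dimmest Ndufs4 probes were -1.21, -1.11 and -0.60. The study set the Rapa-2 mice apart by expression on these same arrays, so these values are a description without a test. With median scaling 1 member passed as higher (2.08%) and 6 as lower (12.5%), against 2.35% and 31.8% of all tested probes, whose median interaction was then -0.18 in place of 0.01. Only Ndufs6 (0.12), Ndufb7 (0.03), Ndufaf7 (0.04) and Ndufab1 (0.19) kept a positive interaction among the 14. Of these, Ndufab1 was detected on 1 of 21 Rapa female and 2 of 16 control female arrays. Relative to the median probe all 14 stayed above 0, from 0.06 for the dimmer Ndufa8 probe to 0.36 for Ndufab1. With the detected share in the model 1 member passed as higher and 1 as lower, where 492 of all 12442 tested probes passed, 44.3% of them as higher.

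Other genes of the pathway were taken from lists drawn up alongside the member roles, with calls on quantile-normalized values. Beside the counts below, 20.0% of all tested probes passed as higher and 18.5% as lower in Rapa females. The lists are short and were not tested as sets. Of 14 tested genes for further complex I assembly factors and proteins near them, 5 passed as higher and 3 as lower in Rapa females. Chchd4, which imports cysteine-rich subunits such as Ndufb7 and Ndufb10, was at 0.41 ± 0.05 (adjusted p = 4.3e-09), and lay 0.19 above the median probe with median scaling. Timmdc1, a membrane arm assembly factor, was at -0.29 ± 0.04 in that comparison and at -1.16 ± 0.05 in control females minus control males (adjusted p = 2.42e-20), and with median scaling its values relative to the median probe were -0.025 and -1.31. Sqor, which oxidizes sulfide and feeds ubiquinone rather than building complex I, was at -0.58 ± 0.08 and -1.55 ± 0.08 in the same comparisons. Timmdc1 and Sqor were also at -1.16 and -1.97 in Rapa-2 minus control males, values of the order seen for Ndufb2 and Ndufb9. Timmdc1 was detected on only 27 arrays, against 67 for Sqor, and had a mean log2 signal of 7.01. The differences of Timmdc1 thus rest on low signal, near the background.

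Of 13 tested regulators of mitochondrial biogenesis, 3 passed as higher and 3 as lower in Rapa females, near the 20.0% and 18.5% of all tested probes. In Rapa males 1 and 3 did, against 3.06% and 7.52% of all tested probes. Tfam, which packages and transcribes mitochondrial DNA, was at -0.56 ± 0.08 in Rapa females minus control females (adjusted p = 2.05e-07) and at -0.32 ± 0.09 in Rapa males minus control males (adjusted p = 0.0187). Tfb1m, a methyltransferase of the mitochondrial ribosome, was at -0.79 ± 0.08 and -0.41 ± 0.12, and Polg2, a subunit of the mitochondrial DNA polymerase, at -0.40 ± 0.07 and -0.22 ± 0.07. Nrf1, whose product binds the NRF1 letters, was at 0.21 ± 0.06 (adjusted p = 0.00143) and 0.21 ± 0.07 (adjusted p = 0.0275), and with median scaling it lay 0.01 and 0.14 above the median probe. The male calls did not hold without the Rapa-2 arrays, where Tfam, Tfb1m, Polg2 and Nrf1 were at -0.06, -0.02, -0.06 and 0.10, or once raw array medians entered the model, at -0.08, -0.07, -0.07 and 0.05. With runs of animal numbers as random blocks none of the 4 passed either, with adjusted p between 0.18 and 0.39. In that model 0 of all 12442 tested probes passed. Its blocks for Rapa males are the Rapa-1 and Rapa-2 subgroups, drawn from these same arrays, so this setting cannot decide the male calls. Ppargc1a and Ppargc1b did not pass in any of the 3 pairwise comparisons, and the probe of Yy1 was detected on 0 arrays.

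Among 11 tested genes that deliver electrons to ubiquinone beside complex I or make ubiquinone, 5 passed as higher and 0 as lower in Rapa females. Etfb, a subunit of the electron transfer flavoprotein of fatty acid oxidation, was at 0.67 ± 0.08 (adjusted p = 2.27e-08) and Coq9, a ubiquinone synthesis protein, at 0.56 ± 0.09 (adjusted p = 3.39e-06). With median scaling they lay 0.51 and 0.30 above the median probe. Coq7, the hydroxylase of ubiquinone synthesis, was at -0.88 ± 0.06 in control females minus control males (adjusted p = 1.63e-14). Of 5 tested genes for supercomplexes and the inner membrane, Stoml2 (0.32 ± 0.06) and Taz (0.30 ± 0.05) passed as higher in Rapa females, where with median scaling they lay 0.31 and 0.05 above the median probe, and 0 passed in Rapa males or between control groups.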

How the data were processed

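RNA from 69 livers was hybridized to Illumina MouseRef-8 bead arrays and, per the paper, the authors read the signals in software of the array's maker. The deposited non-normalized values are bead signal intensity per probe. The deposited detection column is a score, 1 minus the detection p. The authors' processed values are log2, quantile-normalized signals; those recomputed here from the intensities were used as the main values. The file's 117 further columns hold no values and were not used. Groups came from the labels. Symbols came from the platform annotation, updated from RefSeq by gene identifier, for all 53 member probes.

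Each pair of groups had its own limma fit (version 3.58.1, R 4.3.3), tested on simulated data, with two-sided moderated tests and Benjamini-Hochberg adjustment over 12442 probes, and the interaction over all 69 arrays. The number of arrays limits the precision. Values over arrays are given for the 4 highest and lowest passing probes of each comparison, core subunits and genes whose probes disagree; Ndufa1, Ndufaf7, Ndufb2, Ndufb5, Ndufb10 and the array measures were added after their values were seen. Members and lists were chosen with earlier results of these data known. Alternatives were the scaling, background correction, detection filter, 1 probe a gene, covariates, fold minimum, the methods' t-test, blocks and runs of animal numbers.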

Additional observations from a re-analysis of the deposited data

Results flagged for a closer look

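On 5 probes 1 array of a small group stood far from the rest, by the gap to its neighbour as a share of the group's range. The array of Rapa-1 replicate 5 was lowest on the second Ndufs4 probe (10.31, next 10.61, share 0.641) and Rapa-1 replicate 3 on the dimmer Ndufb6 probe (7.99, next 8.20, share 0.69). Rapa-2 replicate 4 was lowest on Ndufaf1 (8.80, next 9.42, share 0.671) and on Ndufb5 (7.31, next 7.69, share 0.653). Rapa-2 replicate 6 was highest on the dimmest Ndufv3 probe (7.38, next 7.28, share 0.626). There were 54 such groups examined, and chance alone flags about 1 in 20.

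The change with rapamycin differed between females and males by the interaction test on 7 of the named probes. The difference was 0.471 for Ndufs6, 0.376 for Ndufb7, 0.339 for Ndufa9, 0.308 for Ndufv1, 0.314 for the brighter Ndufb6 probe, and 0.323 and 0.233 for the brightest and second Ndufv3 probes. The adjusted p ranged from 0.000263 for Ndufs6 to 0.0294 for the second Ndufv3 probe. With median scaling Ndufs6 and Ndufb7 kept a positive value, and the other 5 were between -0.08 and -0.004. Relative to the median probe all 7 lay above 0, from 0.095 for the second Ndufv3 probe to 0.299 for Ndufs6.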

How the results depend on the processing

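In Rapa females against control females, the 19 higher and 9 lower members became 0 and 23 with median scaling, 0 higher with the detected share as a covariate, and 0 and 2 with a 1.5-fold minimum. Over all probes the 4782 passing, of which 51.9% were higher, became 5722 (1.33% higher) with median scaling, 6499 (68.1%) with median scaling over the tested probes, 1638 (36%) with the detected share as a covariate, 7047 without a fold minimum and 746 with a 1.5-fold one.

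In Rapa males against control males, the 6 lower members became 3 with 1 probe a gene, where the 1 higher member still passed. The higher member was lost (0) and the lower became 2 with the detected share as a covariate. Both became 0 with raw array medians as covariate and with either run of control males alone (CM-a or CM-b). They were also 0 with runs of animal numbers as random blocks or without the Rapa-2 arrays. Runs are stretches of the animal numbers in the labels and are not stated to be batches. Those of control males and of control females (CF-a and CF-b) were divided at the widest gap. Those of Rapa males are the Rapa-1 and Rapa-2 subgroups, drawn from these arrays, so the random blocks cannot decide the male calls. The higher member was also lost with median scaling and the 1.5-fold minimum, and the methods' t-test at unadjusted p gave 2 higher and 10 lower. Over all probes, the 1317 passing became 20 with raw array medians as covariate, 0 with the random block, 47 without Rapa-2, and 211 and 181 with either run. They became 2120 with neqc and 254 with a 1.5-fold minimum. The same replicate numbers in different groups did not pair the mice: of 16 numbers shared by Rapa and control females 0 correlated best with their own. With the replicate block 0 members passed in males, and 79 probes of all.

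In control females against control males, the 3 higher members became 0 with raw array medians as covariate, 7 without a fold minimum, 1 with runs CF-a and CM-a, and 0 with a 1.5-fold minimum, which left 8 of the 16 lower ones. In the interaction, the 14 higher and 1 lower members became 1 and 6 with median scaling, 8 higher with median scaling over the tested probes, 5 lower with the raw array median and 1 higher with the detected share. Over all probes the 2543 became 4253, 4114, 4324 and 492 in these settings. Median scaling over the tested probes, the random block and leaving out Rapa-2 were chosen after seeing the data. The methods' t-test after Benjamini-Hochberg adjustment passed 4735, 1233 and 4381 probes in the 3 pairwise comparisons, and 4868, 1726 and 4536 unadjusted. The causes were not tested.

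Signs turned as follows in Rapa females minus control females. With median scaling Ndufs7 was at -0.312, Ndufs8 at -0.293, Ndufv1 at -0.078, Ndufc1 (brighter probe) at -0.144, Ndufb6 at -0.102 and -0.345, Ndufa5 (brighter) at -0.016, Ndufs4 (brightest) at -0.264, and Ndufv3 (second and dimmest) at -0.03 and -0.034. With it over the tested probes Ndufs7 was at 0.0, the dimmer Ndufb6 at -0.033 and the dimmer Ndufa5 at 0.139. With the detected share as a covariate Ndufs7 was at -0.138, Ndufs8 at -0.093, Ndufv1 at -0.078, the dimmer Ndufb6 at -0.198 and the dimmest Ndufv3 at -0.001. With controls of run CF-b Ndufs7 was at -0.009.

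In Rapa males minus control males the brighter Ndufc1 was at -0.04 with median scaling, -0.153 with the raw array median, -0.071 with the detected share, -0.017 with run CM-a, -0.005 with the replicate block and -0.181 without Rapa-2. The dimmer Ndufb6 was at -0.039 with median scaling, -0.051 with the detected share and 0.0 without Rapa-2. Over the tested probes median scaling gave 0.025 for Ndufv1 and 0.0 for the brighter Ndufb6. The second, the third and the dimmest Ndufs4 probes were at 0.141, 0.117 and 0.124 with the raw array median and 0.145, 0.129 and 0.137 without Rapa-2. The dimmer Ndufa5 was at 0.096 and 0.13 in these settings, and the brighter at -0.018 without Rapa-2.

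In control females minus control males the dimmest Ndufv3 was at -0.018 with median scaling, -0.001 with it over the tested probes, -0.052 with the raw array median, -0.002 with the detected share and -0.045 with CF-a against CM-a or CM-b. Ndufaf4 was at -0.112, and the brighter Ndufv3 probes at 0.07 and 0.034, with the raw array median. The brighter Ndufa5 was at -0.032 (CF-a, CM-a) and -0.069 (CF-a, CM-b). With CF-b and CM-a Ndufaf4 was at -0.007, Ndufs7 at 0.001, Ndufv1 at 0.042, the brightest Ndufs4 at 0.049 and Ndufv3 at 0.084 and 0.06. With CF-b and CM-b Ndufs7 was at 0.076, Ndufv1 at 0.051 and Ndufv3 at 0.016 and 0.047.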
